A study of Drosophila melanogaster with 17 samples.

Results

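The comparison described here was made between 6 of the 17 mRNA-seq libraries of the series, each prepared from a pool of dissected central nervous systems (CNS) of Drosophila melanogaster larvae late in the third instar. The 3 C24 libraries (C24_5, C24_6 and C24_7) came from larvae with the elavGAL4 driver and a UAS hairpin against Smn, named C24. The 3 X7/C24 libraries (X7/C24_1, X7/C24_2 and X7/C24_3) came from larvae with the same driver and the same hairpin in which the chromosome with the hairpin also carried the Smn deletion Df(3L)SmnX7. Both groups thus expressed the RNAi construct in post-mitotic neurons, where the elav driver is active, and only X7/C24 also lacked 1 copy of Smn in every cell. The members were chosen by genotype, replicate number and sequencing round. The fathers of the C24 and X7/C24 larvae came from separate stocks, that of X7/C24 kept over the balancer TM6B, Dfd-YFP. Other differences between these stocks thus cannot be told apart from the deletion. The C24 libraries belonged to the second sequencing round and all X7/C24 libraries to the third, so that genotype and round cannot be told apart. Levels in the WT libraries of the second round (elavGAL4 with an empty UAS-PWIZ construct, WT_4 to WT_6), in a pair of CNS-like C24 libraries of the pilot round (C24_2 and C24_4) and in a further X7/C24 library of the third round (X7/C24_4) are given beside the contrast. The study left 1 X7/C24 library out of its own comparison because many of its reads were duplicates, and X7/C24_4 is the X7/C24 library absent from that comparison.

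SMN, the protein encoded by Smn, acts with the Gemin proteins to load the ring of Sm proteins onto spliceosomal snRNAs, a step that every snRNP of the major and minor spliceosome (apart from the U6 type) passes through. The Sm proteins are first methylated and delivered by the csul (PRMT5), vls (MEP50) and icln complex, and coilin (coil) organises the nuclear bodies in which snRNPs mature. In humans, loss of SMN1 causes spinal muscular atrophy, a disease of motor neurons, and fly larvae that lack Smn show defects at the neuromuscular junction and arrest as larvae.

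The 6 libraries held between 16800165 and 28339670 counts on genes, so that 3 counts, taken as the floor of detection, corresponded to 0.106 to 0.179 CPM. All levels below are CPM, the counts divided by the TMM-scaled library size as edgeR gives them, and a gene was called when its adjusted p in edgeR's quasi-likelihood test was below 0.05 over all 9454 genes tested. The p-values measure the spread between pools of larvae within a group. C24_6 stood apart from the other C24 libraries, with correlations of log2 CPM of 0.988 and 0.986 with C24_5 and C24_7, which correlated at 0.996 with each other, whereas the 3 X7/C24 libraries correlated at 0.996 to 0.997. Long genes were under-represented in C24_6 (slope of -0.18 on the log2 scale for each doubling of gene length, against -0.01 to 0.07 in the other 5 libraries). The slope was -0.41 in X7/C24_4 and -0.26 and -0.27 in the pilot C24 libraries. Between the second round and the pilot C24 libraries, where the genotype did not change, 303 of 9550 genes (3.17%) passed the same test. This count fell to 0 without C24_2, C24_4 or C24_5 and to 82 without C24_7, and it was 3969 without C24_6.

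Smn was measured first, as a check of the labels. Its level was 53.8, 65.6 and 53.9 CPM in C24 and 29.6, 28.7 and 28.7 CPM in X7/C24. All 3 X7/C24 libraries thus lay below all 3 C24 libraries, with means of 57.8 ± 6.78 and 29.0 ± 0.51 CPM (SD, n = 3). The log2 fold change was -0.99 (SE 0.09, adjusted p = 0.00078), that is, 1.99-fold less Smn mRNA in the larvae with the deletion. An exact permutation test over the libraries gave p = 0.10, the smallest value that 3 against 3 allows. X7/C24_4 held 43.2 CPM, a value between the groups, while WT ranged from 61.1 to 67.5 CPM and the pilot C24 libraries held 80.3 and 77.3 CPM. With X7/C24_4 added to the fit the log2 fold change was -0.83 and the adjusted p 0.089.

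**Figure D1:**
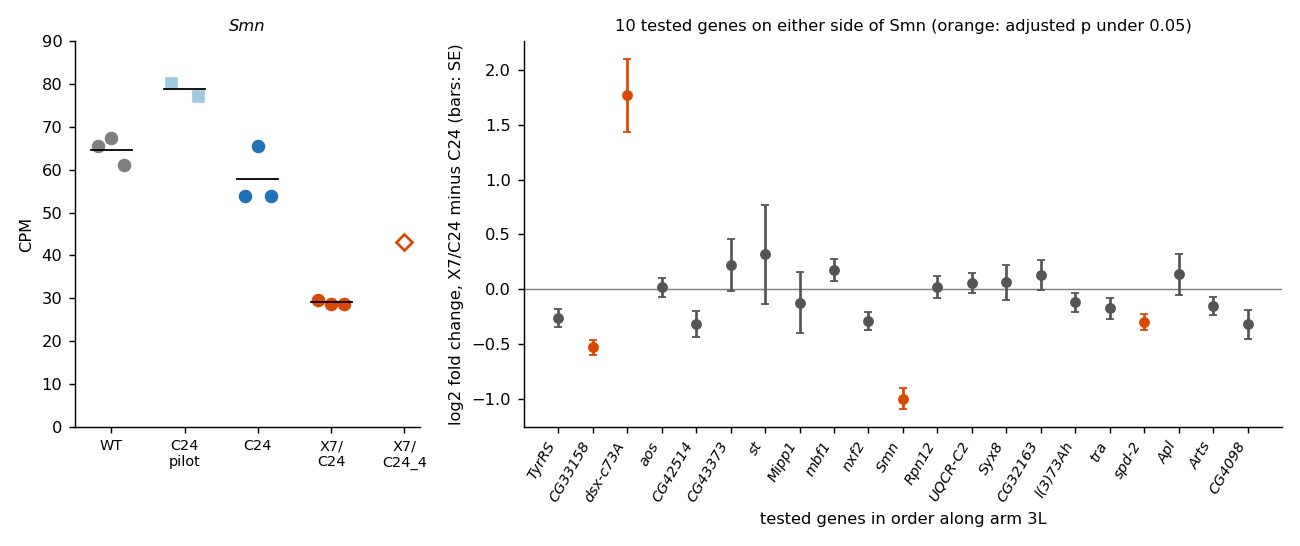
Left, Smn level (CPM) in each library, with the group mean as a line; the X7/C24 libraries sit between 28.7 and 29.6 CPM and X7/C24_4 (open diamond) at 43.2 CPM. Right, log2 fold change of X7/C24 over C24 (bars, SE) for Smn and the 10 tested genes on either side of it in order along arm 3L, where Smn is the only gene below -0.6.

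Smn lies on arm 3L (16580398 to 16581547, minus strand, in the BDGP6 annotation used here for positions). The genes next to it kept levels close to those of C24. On one side nxf2, a nuclear RNA export factor of the germline piRNA pathway, had a log2 fold change of -0.29 (adjusted p = 0.056), and on the other Rpn12, a proteasome lid subunit, had 0.02 (adjusted p = 0.91). Of the 20 neighbours, 3 were called. These were spd-2 (-0.30), a centrosome assembly gene at 10.8 kb, and, on the other side, CG33158 (-0.53) at -160.8 kb and dsx-c73A (1.77) at -157.6 kb. CG33158 was at 60.6 to 64.6 CPM in C24 and at 42.4 to 44.9 CPM in X7/C24, with 44.9 CPM in X7/C24_4, whereas dsx-c73A was below 1 CPM in both group means (0.23 and 0.79 CPM). Within 0.1 Mb of Smn, 2 of 25 genes were called (8%), 1 higher and 1 lower, Smn itself not counted. Between 0.1 and 1 Mb the share was 24.6% of 142 genes, from 1 to 5 Mb 11.1% of 621, and beyond 5 Mb 15.4% of 1004. By arm, calls made up 9.71% of the genes on X, 16.2% on 2L, 15.6% on 2R, 14.6% on 3L and 12.7% on 3R. On chromosome 4, 6 of 76 genes were called, all of them higher in X7/C24. The transgene marker gene w, present in all these strains, was at 119 ± 10.5 CPM in C24 and 106 ± 6.51 CPM in X7/C24 (log2 fold change -0.17, adjusted p = 0.25).

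In all, 1280 of 9454 genes (13.5%) were called, 718 higher (7.59%) and 562 lower (5.94%) in X7/C24. The higher calls were larger and came from less abundant genes. Their median log2 fold change was 1.07 at a median level of 3.30 log2 CPM, while that of the lower calls was -0.41 at 5.43 log2 CPM, and 384 genes were higher but only 70 lower by 2-fold or more. For each of the 1280 genes the groups did not overlap, as was so for 37.6% of all tested genes (17.8% with X7/C24 higher and 19.8% with X7/C24 lower). The count depended on single libraries. It was 2707 without C24_6, 729 without C24_5, and 522, 535 and 461 without X7/C24_1, X7/C24_2 and X7/C24_3. With scaling by total counts 1153 genes were called and the share of higher calls changed from 56.1% to 44.8%, the median of all genes moving to -0.07. After correction of each library for its length trend, 976 genes were higher and 1868 lower (34.3% higher), and without X7/C24_3 376 were higher and 85 lower (81.6% higher). Adding X7/C24_4 to the X7/C24 group reduced the count to 33 of 9520 genes (0.347%). The level in X7/C24_4 lay beyond all 3 C24 libraries in the direction of the call for 365 of the 718 higher genes (50.8%) and 315 of the 562 lower genes (56%). For the genes changed by 2-fold or more the shares were 182 of 384 (47.4%) and 59 of 70 (84.3%). The same C24 libraries entered the calls and these shares, and over all tested genes, called or not, the shares in the direction of the fitted change were 40.6% and 39.2%, or 46% and 76.3% for fitted changes of 2-fold or more.

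**Figure D2:**
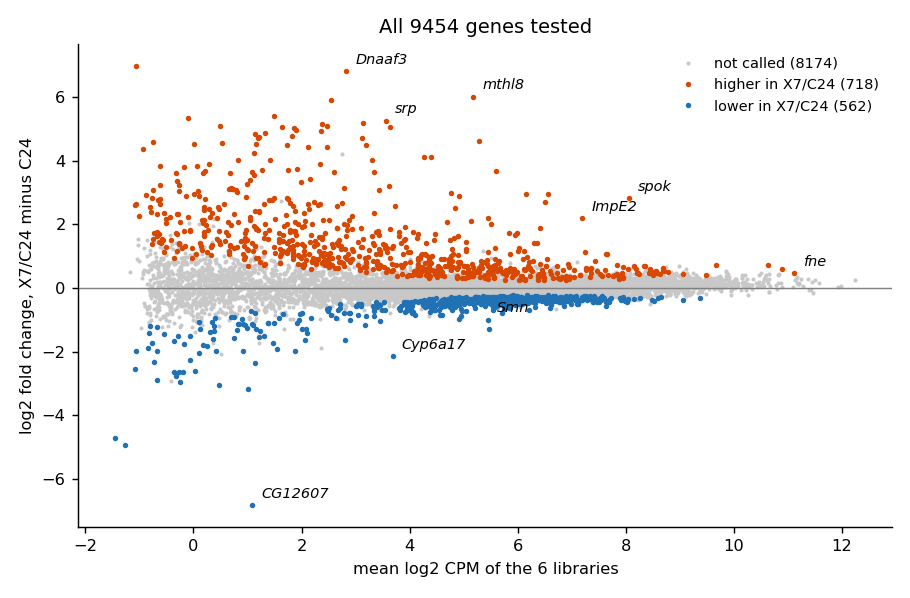
Log2 fold change of X7/C24 over C24 against mean log2 CPM of the 6 libraries for all 9454 tested genes; each point is a gene, orange and blue mark the 718 higher and 562 lower calls. Higher calls spread over large changes at low and middle levels, whereas most lower calls form a narrow band below 0.

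Changes found in all 4 X7/C24 libraries stood out at a small set of genes. Dnaaf3 (CG17669), which encodes a factor for the assembly of ciliary dynein arms, was at 0.163, 0.045 and 0.151 CPM in C24 and at 12.5, 14.3 and 14.5 CPM in X7/C24. The C24 values, like those of WT (0.0745 to 0.110 CPM), lay near or below the floor of 3 counts, whereas X7/C24_4 held 11.5 CPM. It was the largest rise of the contrast among genes of at least 1 log2 CPM (log2 fold change 6.82, SE 0.27, adjusted p = 8.4e-05).

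Reepl1 (CG11697), a member of the REEP family of endoplasmic reticulum membrane proteins, rose from 0.435, 0.631 and 0.302 CPM in C24 to 18.5, 15.5 and 16.6 CPM in X7/C24, with 29.3 CPM in X7/C24_4 and 0.431 to 0.521 CPM in WT (log2 fold change 5.17, adjusted p = 8.4e-05). For mthl8, a Methuselah-like G protein-coupled receptor gene, 2 C24 libraries were at 0 and C24_6 at 3.02 CPM, against 69.5, 72.6 and 70.5 CPM in X7/C24 and 59.5 CPM in X7/C24_4 (log2 fold change 6.02, adjusted p = 0.0022). WT was uneven for this gene, at 16.7, 29.6 and 4.02 CPM, so that mthl8 differed within one genotype as well. CG9021 rose from 0.721 to 1.96 CPM in C24 to 13.6 to 22.2 CPM in X7/C24 (log2 fold change 3.64), and X7/C24_4 held 15.6 CPM. NimC3, a Nimrod family gene with a role in phagocytosis, and Drsl5, a drosomycin-like peptide gene, were low throughout, at 0.10 to 0.41 CPM in C24, yet reached 2.35 to 3.15 and 2.03 to 4.40 CPM in X7/C24 and 1.94 and 3.71 CPM in X7/C24_4.

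Among the lower genes CG12607 showed the widest gap. It was at 2.88, 4.37 and 4.99 CPM in C24 and had 0, 0 and 2 reads in the X7/C24 libraries, and none in X7/C24_4, while WT held 1.62 to 3.91 CPM. By reads, 249 in C24 against 2 in X7/C24, the ratio was 134-fold with a 95% interval of 36.8 to 1117 that covers counting error only. More abundant was phr (photorepair), the gene of the photolyase that repairs ultraviolet damage in DNA, at 58.2, 68.3 and 63.0 CPM in C24 and 24.5, 29.3 and 23.4 CPM in X7/C24 (2.46-fold lower, adjusted p = 0.00045). X7/C24_4 held 30.5 CPM and no WT or C24 library lay below 58.2 CPM. The cytochrome P450 gene Cyp6a17, known in flies for an effect on temperature preference, fell from 17.2, 23.5 and 21.8 CPM to 4.27, 5.95 and 4.00 CPM (log2 fold change -2.14, adjusted p = 0.00063), with 7.96 CPM in X7/C24_4 and 8.75 to 9.47 CPM in WT. C24 was thus the high group for Cyp6a17, and X7/C24 was below WT as well. Spindly, a dynein adaptor of the kinetochore, was at 63.5 to 67.7 CPM in C24 and 36.4 to 40.5 CPM in X7/C24 (log2 fold change -0.79), and Tom70, a receptor of the mitochondrial protein import pore, at 66.6 to 74.2 and 42.8 to 47.4 CPM (-0.64). In X7/C24_4 these genes held 39.5 and 49.1 CPM, within or just above the range of the other X7/C24 libraries.

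In the fit with X7/C24_4 included, 22 of the 33 called genes were higher and 11 lower, and 13 of the 31 with a known position lay on arm 3L (41.9%), as did 20.2% of all tested genes and 21.5% of the 1280 calls; this difference was not tested. For 21 of them, 12 higher and 9 lower, the 4 X7/C24 libraries did not overlap with the 8 WT and C24 libraries. Over all genes tested this held for 247 (2.61%), with X7/C24 higher in 1.27%. The 4 X7/C24 libraries and C24_5 to C24_7 had also entered the calls. The separation of the 21 is thus in part fixed by their selection and is no independent test of it. Dnaaf3, Reepl1, CG9021, NimC3, Drsl5, phr, Spindly, Tom70, Cyp6a17 and CG12607 were among the 21. For each gene of the remainder the X7/C24 levels overlapped with those of the 8 WT and C24 libraries. CG2120 and CG14212 on X were at 8.60 to 12.0 CPM over the 4 X7/C24 libraries and at 2.94 to 4.13 CPM in the C24 libraries of the second round, but the pilot C24 libraries held 9.67 to 12.8 CPM.

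**Figure D3:**
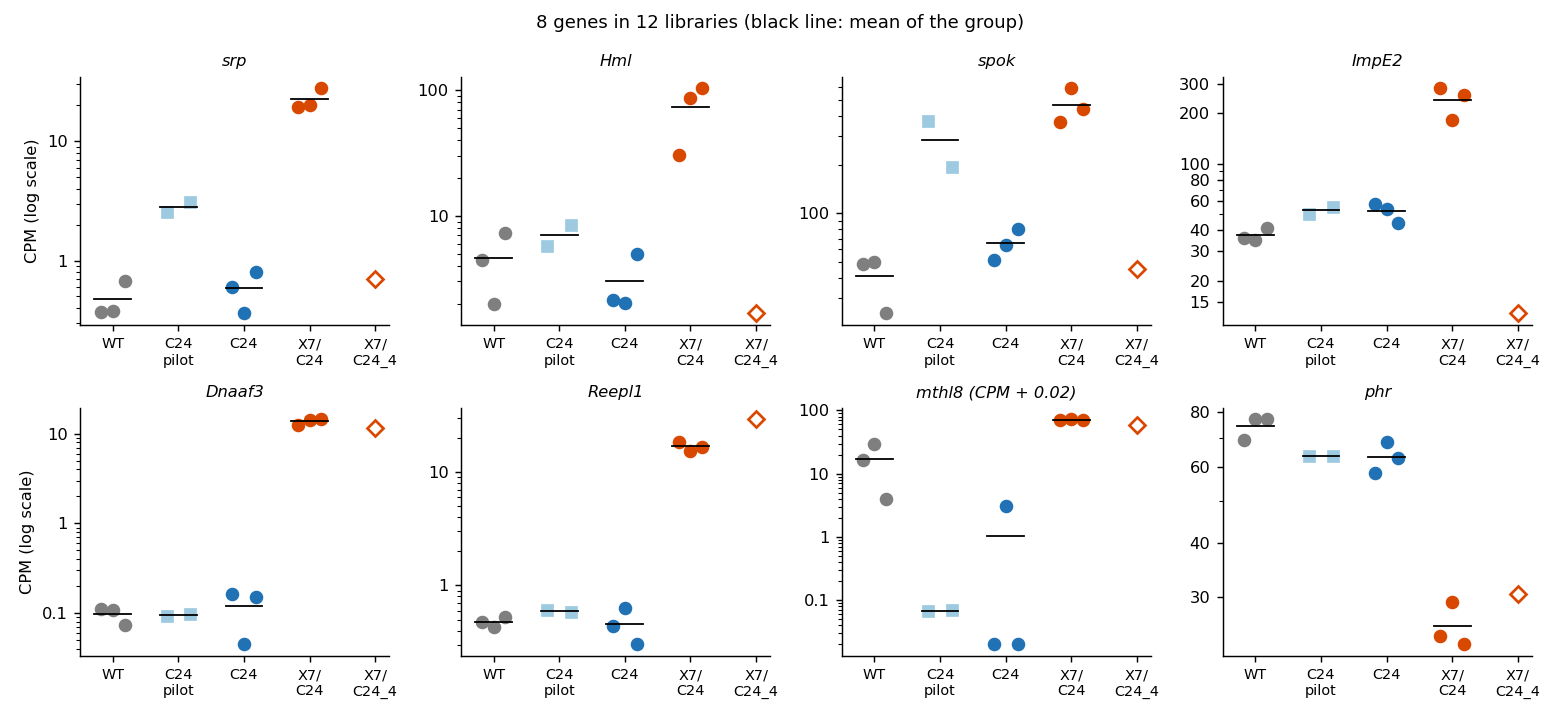
CPM on a log axis of 8 genes in WT, pilot C24, C24 and X7/C24 libraries, with group means as lines and X7/C24_4 as an open diamond; 0.02 CPM was added to mthl8. In the upper row (srp, Hml, spok and ImpE2) X7/C24_4 lies with or below C24, and in the lower row (Dnaaf3, Reepl1, mthl8 and phr) it lies with the other X7/C24 libraries.

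The components of snRNP assembly other than Smn showed small changes in both directions. Of 20 tested members of the list, Smn itself counted, 1 was called higher and 4 lower (25% called), with a median log2 fold change of -0.06 against 0.01 over all genes. Over all genes tested, 13.5% were called, 7.59% higher and 5.94% lower. A fitted change above 0 was found for 4868 genes and one below 0 for 4586. These values stand beside the counts of every list below. Besides Smn the lower calls were icln (-0.55, adjusted p = 0.019), vls (-0.41, adjusted p = 0.021) and coil (-0.33, adjusted p = 0.046). icln was at 107, 135 and 105 CPM in C24 and 85.0, 77.7 and 75.1 CPM in X7/C24, and vls at 26.3, 28.7 and 26.6 and at 20.3, 19.3 and 21.6 CPM. X7/C24_4 was on the C24 side for both, with 124 CPM of icln and 28.6 CPM of vls. The higher call was SmB, which encodes a core Sm protein, at 67.7, 83.1 and 64.4 CPM in C24 and 105, 97.7 and 86.9 CPM in X7/C24 (log2 fold change 0.43, adjusted p = 0.0496). Against the pilot C24 libraries, at 126 CPM each, the direction of SmB was the opposite (-0.38), and with total-count scaling it was not called. Without C24_6, 4 members were higher and 6 lower.

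Proteins that act within the spliceosome were more uniform. Of 26 tested, 9 were lower and none was higher (34.6% called, beside 13.5% of all genes tested). A log2 fold change below 0 was found for 24 of them (median -0.22). Sf3b1 (CG2807), a U2 snRNP subunit at the branch site, was at 301, 295 and 297 CPM in C24 and 218, 220 and 221 CPM in X7/C24 (-0.44, SE 0.07, adjusted p = 0.0066). Prp3 (CG7757) and U4-U6-60K, both of the U4/U6 snRNP, fell by 0.41 and 0.43, and the helicase Prp22 (pea), which releases spliced mRNA, fell by 0.36. None of the 9 reached 1.5-fold. Without C24_6, 16 were lower and 1 was higher. In X7/C24_4 Sf3b1 and Prp22 were low (228 and 65.4 CPM), but so were the pilot C24 libraries (221 to 235 and 62.0 to 66.2 CPM), and Prp3 in X7/C24_4, at 140 CPM, equalled the C24 level of 137 to 142 CPM.

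The same pattern was seen for genes of the cell cycle. Of 29 genes for DNA replication and mitosis, 13 were lower and none higher (44.8% called, beside 13.5% of all genes tested). Their median log2 fold change was -0.24. The chromosomal passenger kinase gene aurB (ial) changed most, from 64.7, 83.3 and 61.7 CPM in C24 to 45.6, 44.5 and 45.2 CPM in X7/C24 (-0.63, adjusted p = 0.013). Mcm2, a subunit of the replicative helicase, was at 186 to 206 CPM in C24 and 139 to 146 CPM in X7/C24 (-0.45, adjusted p = 0.0086), and RnrL, the large subunit of ribonucleotide reductase, at 193 to 218 and 142 to 153 CPM (-0.44, adjusted p = 0.011). BubR1 of the spindle checkpoint fell by 0.35 and the kinesin gene Klp61F by 0.42. X7/C24_4 lay below all 3 C24 libraries for 8 of the 13 called genes (61.5%, beside 56% of all lower calls). For aurB it did not, at 80.4 CPM. The same C24 libraries had entered these calls. With the 2 pilot C24 libraries counted as well, X7/C24_4 lay below all of them for 6 of the 13 (46.2%, beside 30.4%). The pilot C24 libraries, with no deletion, held 307.5 and 243.8 CPM of sti (309 to 327 CPM in X7/C24) but 93.6 and 82.5 CPM of aurB. Against them 15 genes of the list were lower and 1 higher in X7/C24 (median -0.21). Neuroblasts, the stem cells of the larval CNS, supply most dividing cells of this tissue. The summed level of their 6 marker genes was 728 to 757 CPM in C24, 630 to 674 CPM in X7/C24, 705 CPM in X7/C24_4 and 781 and 675 CPM in the pilot C24 libraries. Of the 6, ase was lower (-0.33, adjusted p = 0.029), mira had -0.26 (adjusted p = 0.061), dpn -0.14 (adjusted p = 0.27), and grh was higher (0.56, adjusted p = 0.0042). In pooled tissue, fewer cells of a type and less RNA per cell cannot be told apart.

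Neuronal and glial genes changed little. The 16 neuronal markers had a median log2 fold change of 0.17 and 1 was called, fne, an RNA-binding protein gene of the elav family (0.47, adjusted p = 0.039), at 2041, 1673 and 1885 CPM in C24 and 2710, 2663 and 2366 CPM in X7/C24. X7/C24_4 held 1477 CPM of fne, below every C24 library, and the pilot C24 libraries held 2288 and 2096 CPM. After correction for the length trend none of the markers was called (median -0.03). The driver gene elav had 0.12 (adjusted p = 0.56). None of the 9 glial markers was called by edgeR or DESeq2 or had an unadjusted p under 0.05, among them repo (-0.03, adjusted p = 0.81). Of 17 voltage-gated channel genes none was called by edgeR or DESeq2 and 1 had an unadjusted p under 0.05, although 15 had a positive log2 fold change (median 0.22). Against the pilot C24 libraries, in which long genes were under-represented, 14 were higher (median 0.89). After correction of each library of the contrast for its length trend, 1 channel gene was higher and 1 lower (median -0.05). Of 26 neuropeptide genes 3 were lower (11.5% called, beside 13.5% of all genes tested). These were SIFa (IFa), from 18.6, 25.0 and 19.0 CPM to 13.5, 11.8 and 11.0 CPM (-0.80, adjusted p = 0.013), Dh44, a diuretic hormone (-0.41), and Hug (hug, -0.29), the hugin peptide of feeding circuits. X7/C24_4 lay outside the X7/C24 range for all 3, with 23.5 CPM of SIFa, 83.3 CPM of Dh44 (67.8 to 81.4 CPM in X7/C24 and 93.7 to 105 CPM in C24) and 72.7 CPM of Hug (39.8 to 45.2 CPM in X7/C24, and 51.9 ± 1.72 CPM in C24, SD, n = 3). The summed level of the neuronal markers was 10190 to 13030 CPM in C24, 13330 to 14830 CPM in X7/C24 and 8092 CPM in X7/C24_4.

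**Figure D4:**
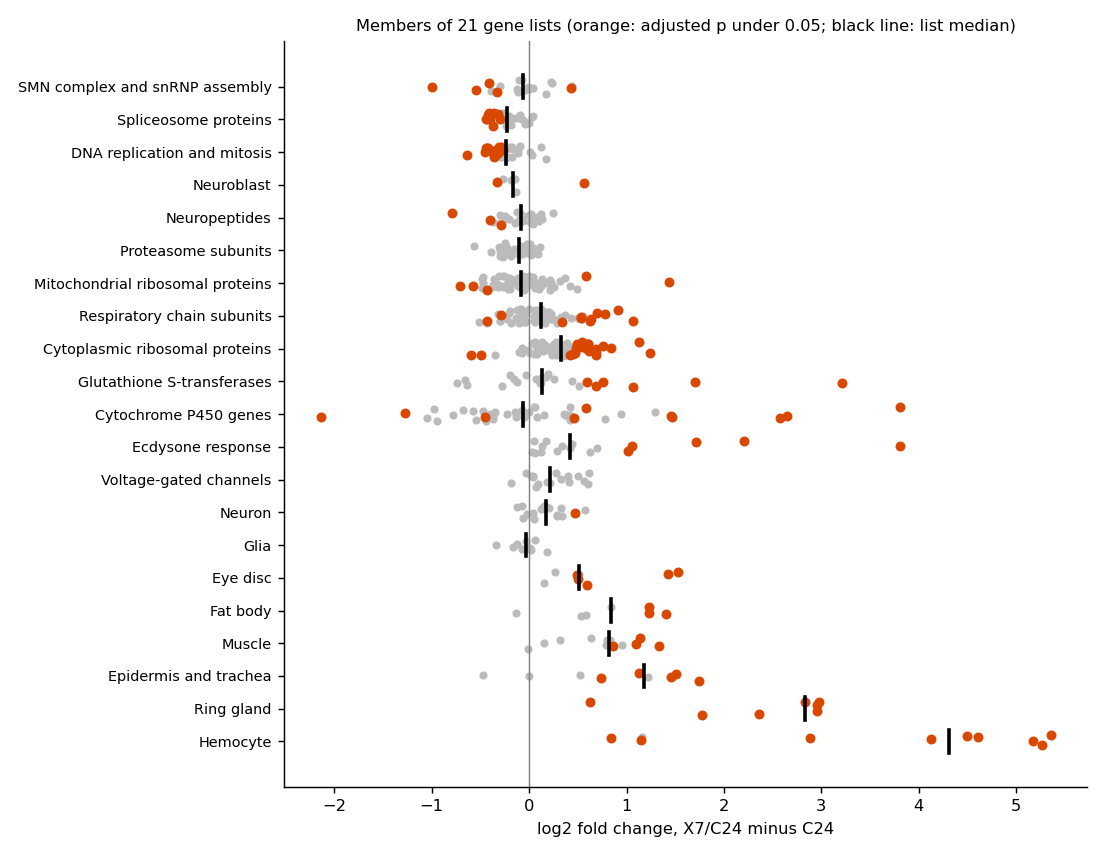
Log2 fold change of X7/C24 over C24 for the members of 21 gene lists; each point is a gene, orange marks adjusted p under 0.05 and the black line the list median. The hemocyte and ring gland lists lie furthest to the right (medians 4.31 and 2.83), while the spliceosome and cell cycle lists lie just below 0 (medians -0.22 and -0.24).

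The largest rises in a list of genes were those of hemocytes, the blood cells of the larva. Of 10 markers 9 were higher and none lower, with a median log2 fold change of 4.31. The GATA factor gene srp was at 0.598, 0.360 and 0.806 CPM in C24 and 19.3, 20.3 and 27.8 CPM in X7/C24 (5.26, SE 0.27, adjusted p = 0.00013). Hml (hemolectin), a clotting factor of plasmatocytes, was at 2.12, 2.03 and 4.99 CPM and at 30.7, 86.9 and 104 CPM (4.61, adjusted p = 0.0020). Of the 3 X7/C24 libraries X7/C24_1 was the lowest for each of the 10 markers. The phagocytic receptor eater reached 8.36 to 23.3 CPM from below 1 CPM, and the phenoloxidase gene PPO1 (proPO-A1) of crystal cells reached 15.2 to 54.6 CPM from 0.598 to 3.11 CPM. X7/C24_4 did not reach these levels, although it lay above the 3 C24 libraries for 2 of the 9 called genes. It held 0.699 CPM of srp, 1.67 CPM of Hml, 0.860 CPM of eater and 1.40 CPM of PPO1, and its summed level of the 10 markers was 97.4 CPM, against 111 to 174 CPM in C24, 136 and 158 CPM in the pilot C24 libraries, 146 to 217 CPM in WT and 285 to 598 CPM in the other X7/C24 libraries. The pilot C24 libraries held 2.56 and 3.07 CPM of srp and 2.51 and 4.63 CPM of eater, and against them the 10 markers were higher with a median of 2.17. Several of the largest rises outside the list were also low in X7/C24_4, such as lectin-28C (5.06), CG42807 (5.10), CG33460 (5.40) and Sid (CG9989, 4.96), for which X7/C24_4 was at 0.27 to 1.13 CPM and the lowest of the other X7/C24 libraries at 3.47 to 13.8 CPM.

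Genes of the ring gland, the endocrine organ attached to the brain that makes ecdysone, rose together. All 7 markers were higher, with a median log2 fold change of 2.83. Among the Halloween genes, which encode the enzymes of ecdysone synthesis, spok was at 51.4, 64.2 and 80.5 CPM in C24 and 366, 588 and 440 CPM in X7/C24 (2.83, SE 0.22, adjusted p = 0.00039), phm (phantom) at 17.9, 19.2 and 27.5 and at 129, 197 and 176 CPM (2.96), and nvd, which acts first in the pathway, at 4.51 to 7.91 and at 39.0 to 57.9 CPM (2.98). Akh, the adipokinetic hormone of the corpora cardiaca, was at 5.71 to 6.76 and at 18.3 to 24.7 CPM (1.77). In X7/C24_4 these 4 genes held 45.6, 20.6, 4.62 and 9.73 CPM, so that only Akh exceeded C24. The summed level of the list was 155 to 205 CPM in C24, 98.3 to 152 CPM in WT, 747 to 1111 CPM in X7/C24, 147 CPM in X7/C24_4 and, with no deletion, 766 and 411 CPM in the pilot C24 libraries, against which 4 of the 7 were higher (median 0.71). The share of the ring gland carried along in dissection was not measured, and its part in these values was not tested.

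**Figure D5:**
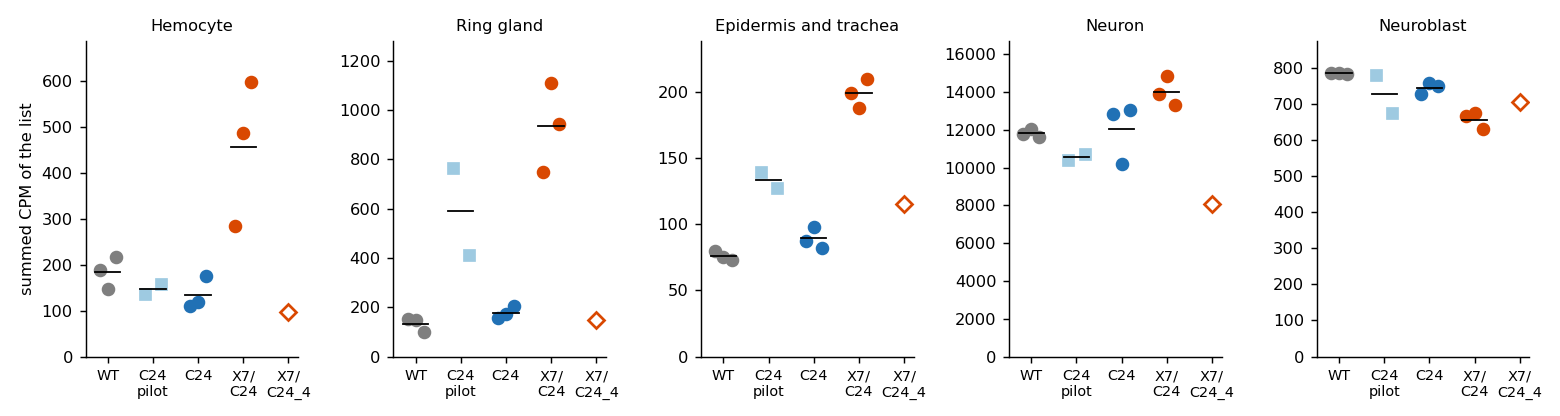
Summed CPM of the marker lists for hemocytes, ring gland, epidermis and trachea, neurons and neuroblasts in each library, with group means as lines and X7/C24_4 as an open diamond. The hemocyte sum is 285 to 598 CPM in X7/C24 against 111 to 174 CPM in C24, and 97.4 CPM in X7/C24_4; pilot C24 libraries reach 766 CPM for the ring gland.

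Genes that respond to ecdysone were measured beside those that make it. Of 17 tested, 5 were higher and none lower (29.4% called, beside 13.5% of all genes tested). All 17 had a log2 fold change above 0 (median 0.41). ImpE2, an ecdysone-inducible gene of imaginal discs, was at 57.7, 53.9 and 44.5 CPM in C24 and 281, 182 and 258 CPM in X7/C24 (2.21, adjusted p = 0.00039). ImpE3 (1.71), ImpL1 (1.01), the nuclear receptor gene Hr3 (Hr46, 1.05) and Cyp18a1 (3.80), which inactivates ecdysone, made up the other calls. Cyp18a1 had 3, 1 and 2 reads in the C24 libraries, at or below the floor of 3 counts, and 1.14 to 2.04 CPM in X7/C24. The early genes br (0.29, adjusted p = 0.23), Eip74EF (0.06, adjusted p = 0.85) and Eip75B (0.41, adjusted p = 0.17) and the receptor gene EcR (0.13, adjusted p = 0.67) were not called. X7/C24_4 lay on the side of the call beyond the C24 libraries for none of the 5, with 12.8 CPM of ImpE2, lower than in any WT or C24 library (35.3 to 57.7 CPM).

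Some markers of other tissues near the CNS were also called. Of 10 genes of epidermis and trachea 5 were higher (median 1.18). The chitin-binding protein gene Gasp was at 16.2, 19.9 and 16.2 CPM in C24 and 48.1, 47.9 and 48.0 CPM in X7/C24 (1.46, adjusted p = 0.00029), and obst-A at 11.0 to 16.4 and 36.9 to 42.0 CPM (1.51). X7/C24_4 held 20.2 and 13.0 CPM of these genes and the pilot C24 libraries 25.1 to 32.7 and 19.0 to 19.7 CPM, and against the latter 4 of the 10 were higher and 1 lower (median 0.18). Of 8 eye disc genes 5 were higher (median 0.51), led by the transcription factor genes gl at 10.0 to 11.3 and 27.8 to 28.9 CPM (1.43) and lz at 2.52 to 2.72 and 7.32 to 7.87 CPM (1.53), which held 4.52 and 1.02 CPM in X7/C24_4. Of 13 muscle genes 4 were higher (median 0.82, and 0.16 against the pilot C24 libraries), all below 7 CPM, whereas Mhc, the muscle myosin heavy chain, had -0.01 (adjusted p = 0.99). Of 7 fat body genes 3 were higher, Fbp1 (1.41), Lsp2 (1.23) and Fbp2 (1.23), while apolpp (Rfabg), the most abundant, had -0.13 (adjusted p = 0.62). Fbp1 ranged from 17.6 to 75.3 CPM among the WT libraries, and the summed level of the list was 1514 to 2042 CPM in C24 and 1668 to 2019 CPM in X7/C24. Of 7 imaginal disc genes 1, wg, was higher (0.92), and their sums overlapped, at 560 to 710 CPM in C24 and 680 to 711 CPM in X7/C24. Salivary glue genes were low in all libraries (summed level at most 35.6 CPM) and 1 of 6, Sgs8, was lower (-1.68).

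Most cytoplasmic ribosomal protein genes had a log2 fold change above 0 in the contrast, 80 of 87 tested. Of these 87, 21 were called higher and 2 lower (26.4% called, beside 13.5% of all genes tested), with a median log2 fold change of 0.32. RpL41 was at 33.9, 49.0 and 31.9 CPM in C24 and 106, 92.9 and 73.9 CPM in X7/C24 (1.24, adjusted p = 0.0064), RpS26 at 243, 274 and 231 and at 438, 400 and 366 CPM (0.69, adjusted p = 0.0060), and RpS3, the most abundant of the calls, at 582 to 678 and 733 to 911 CPM (0.42). The lower members were RpL7-like (-0.60) and RpS15Ab (-0.49). X7/C24_4 was higher still, with 123 CPM of RpL41 and 631 CPM of RpS26, but the pilot C24 libraries were as high (126 to 131 and 519 to 529 CPM), and against them 84 of the 87 genes were lower in X7/C24 (median -0.47). With total-count scaling 9 genes were higher and 2 lower, and without C24_6 63 and 3. RpL41 and RpS26 were highest in X7/C24_4 and the pilot C24 libraries, the libraries in which long genes were most under-represented, and after correction of each library for its length trend 46 ribosomal protein genes were higher and 3 lower (median 0.26). Among 65 subunits of the respiratory chain 9 were higher and 2 lower (16.9% called, beside 13.5% of all genes tested). These counts were 2 and 3 with total-count scaling, and 33 and 4 without C24_6. ND-MLRQ (CG32230, 0.91) and UQCR-11 (Ucrh, 0.78) were among the higher calls, and the list had a median of -0.49 against the pilot C24 libraries. Of 74 mitochondrial ribosomal protein genes 2 were higher and 3 lower (13 and 4 without C24_6), that is, 6.76% called, beside 13.5% of all genes tested. Of 33 proteasome subunits none was called by edgeR (10 at an unadjusted p under 0.05), DESeq2 called 2 lower, and 5 were lower without C24_6.

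Most genes of the stress and detoxification lists were not called, although both detoxification lists had a larger share of calls than all genes tested. Of 11 genes of the unfolded protein and ATF4 response only Thor, which encodes the translation repressor 4E-BP, was called. It was at 7.77, 9.55 and 7.86 CPM in C24 and 43.7, 53.4 and 48.5 CPM in X7/C24 (2.53, SE 0.12, adjusted p = 9.4e-05), 11.8 CPM in X7/C24_4, and 31.6 and 20.8 CPM in the pilot C24 libraries. Of 19 genes of p53, DNA damage and cell death, the cell death activator hid (W) was the single call, at 35.4 ± 5.05 and 53.6 ± 1.43 CPM (SD, n = 3; 0.60, adjusted p = 0.011), with 30.4 CPM in X7/C24_4. None of 14 heat shock protein genes was called by edgeR (4 at an unadjusted p under 0.05), and DESeq2 called 1 higher. Of 23 glutathione S-transferase genes 6 were higher and none lower (26.1% called, beside 13.5% of all genes tested), from GstS1 (0.59) to GstE14 (CG4688, 3.22). GstE14, a further gene of ecdysteroid synthesis, was at 1.63 to 3.53 CPM in C24 and 13.9 to 29.3 CPM in X7/C24 but at 1.83 CPM in X7/C24_4. The pilot C24 libraries, with no deletion, held 15.85 and 8.57 CPM of GstE14. Of 46 cytochrome P450 genes 7 were higher and 3 lower (21.7% called, beside 13.5% of all genes tested). Besides Cyp6a17, Cyp28d2 fell by 1.28 with X7/C24_4 in the range of the other X7/C24 libraries (2.37 CPM, against 2.29 to 2.60 CPM), and Cyp6g2, which is expressed in the corpora allata, rose by 2.57 but was at 3.06 CPM in X7/C24_4, within the C24 range of 2.17 to 4.82 CPM. Cyp6g2 was at 14.7 to 26.8 CPM in X7/C24_1 to X7/C24_3 and at 12.7 and 7.31 CPM in the pilot C24 libraries. X7/C24_4 lay beyond the C24 libraries in the direction of the call for 2 of the 10. Of 12 Methuselah-like receptor genes, a list put together after the values were seen, 5 were higher. Apart from mthl8, mthl6 (5.02) and mthl2 (4.87) were at 0.54 and 0.38 CPM in X7/C24_4, below the other X7/C24 libraries, whereas mthl3 (0.70) was at 60.4 CPM, within their range of 51.6 to 67.9 CPM.

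The most abundant of the called transcripts changed by small amounts. The called genes with the highest levels were fne, CG10077 (0.59), which encodes a DEAD-box RNA helicase, the latrophilin homologue Cirl (0.73), the midkine homologue miple1 (miple, 0.74) and RpS3 in the higher direction, and eIF3a (eIF3-S10, -0.31), mod (-0.37), msk (-0.29), CCT1 (T-cp1, -0.31) and sti (-0.40) in the lower. Cirl was at 1279, 949 and 1346 CPM in C24, 2014, 1930 and 2004 CPM in X7/C24 and 1510 to 1780 CPM in WT. X7/C24_4 held 949 CPM and the pilot C24 libraries 810 and 917 CPM. miple1 was at 606, 655 and 568 CPM in C24 and 1085, 1053 and 910 CPM in X7/C24, with 1102 CPM in X7/C24_4, 726 and 759 CPM in the pilot C24 libraries and 495 to 705 CPM in WT. The translation initiation factor eIF3a was at 747, 709 and 753 CPM in C24 and 607, 585 and 592 CPM in X7/C24. X7/C24_4 held 648 CPM, and the pilot C24 libraries, with no deletion, 601 and 648 CPM. In X7/C24_4 CG10077 (1082 CPM) lay below every C24 library, and mod (643 CPM) and CCT1 (444 CPM) lay within the C24 range. The genes msk (374 CPM) and sti (234 CPM) lay below that range in X7/C24_4, with 386 and 361 CPM of msk and 307.5 and 243.8 CPM of sti in the pilot C24 libraries. Of 35 translation initiation factor genes, again a list made after the values were seen, 6 were lower and none higher (median -0.12). This was 17.1% called, beside 13.5% of all genes tested.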

How the data were processed

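The authors aligned filtered read pairs to BDGP5 with BWA, removed duplicates with SAMTools and counted reads per FlyBase gene with HTSeq without strand, and deposited the counts used here. Without strand, overlapping and antisense genes cannot be separated, and unique alignment affects paralogs. Other deposited tables were not used. The groups, lists and members were chosen with earlier results of these data known. Counts of the 6 libraries were filtered (filterByExpr), TMM scaled and tested with edgeR 4.0.16 (glmQLFit, glmQLFTest, no covariate, R 4.3.3) with Benjamini-Hochberg adjustment, 0.05 as the threshold. 13872 genes were listed and 9454 tested. Alternatives used DESeq2 1.42.0, limma-voom (limma 3.58.1), other scalings, filters and libraries. Fold changes and CPM follow the fit's scale; log2 CPM used a prior count of 2.

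Named by rule were Smn, its 10 tested neighbours on either side, w, stas, called SMN complex members, the 12 largest rises and falls with adjusted p under 0.05, no overlap and mean log2 CPM of at least 1, the 5 most abundant calls in each direction, and up to 4 called members per list, or 2 abundant members where none was called. Other genes named, among them those called with X7/C24_4 added and the Methuselah-like and translation initiation factor lists, were chosen after their values were seen. stas (CG8408) had a log2 fold change of 0.22 (adjusted p = 0.068). Of the genes, 13153 (94.8%) had a BDGP6 position by identifier. Intervals and floors cover counting error only.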

Additional observations from a re-analysis of the deposited data

How the results depend on the processing

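Depth limits genes near 3 counts, and round and paternal stock limit every difference between the groups. The 1280 calls became 752 with a term for the library kit set, 33 with X7/C24_4 added, 2042 in a joint fit of 9 libraries with WT, 5121 with C24_2 and C24_4 of the pilot as C24, 274 against a 1.5-fold limit and 2844 with the length trend taken out; leaving out 1 library gave 461 to 2707. DESeq2 (1466), limma-voom (1258), DESeq2 size factors (1293), total counts (1153), no filter (1154) and a minimum of 10 counts (1033) stayed within 1.5 times. The log2 fold change of Smn was -0.83 (adjusted p = 0.089) with X7/C24_4 added. Called members of the lists numbered 56 to 267 when 1 library was left out. For C24 of the second round against the pilot, 303 calls became 1289 with DESeq2 and 0 to 3969 when 1 library was left out. No paired analysis was possible because the groups share no replicate number (5 to 7 against 1 to 3).

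With the pilot C24 libraries as C24, the log2 fold change reversed for CG32152 (0.25), RpS3 (-0.33), sti (0.20), SmB (-0.38), RpS26 (-0.38), RpL41 (-0.50), RpL23 (-0.31), RpL37A (-0.30), mRpL33 (-0.62), mRpL54 (-0.075), CG5548 (-0.43), CG32230 (-0.64), Ucrh (-0.57), GstS1 (-0.036), GstD1 (-0.19) and Mp20 (-0.22). In a comparison of X7/C24_4 with C24_2 and C24_4, chosen after seeing the data and sharing no library with the contrast, the medians of 27 of 37 lists changed sign, 12 of them by more than the spread between libraries on both sides, namely spliceosome proteins (0.072), ecdysone response (-0.48), BMP signalling (-0.093), FGF signalling (-0.38), neurons (-0.32), eye disc (-0.36), ring gland (-2.16), muscle (-0.34), hemocytes (-1.09), epidermis and trachea (-0.22), Methuselah-like receptors (-0.075) and translation initiation factors (0.082). Among the other 15 were voltage-gated channels (-0.75), salivary gland (0.14), imaginal disc (-0.14) and the SMN complex (0.096). The cause was not tested.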

Other observations

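Of the 384 genes that were higher by 2-fold or more in X7/C24, 97 (25.3%) had the same direction when X7/C24_4 was set against the pilot libraries C24_2 and C24_4, and of the 70 that were lower by 2-fold or more, 57 (81.4%) did. Over all 9454 genes tested the share was 42.6%. lncRNA:CR32368 (CG32368) was at 0.511 to 0.926 CPM in the 8 WT and C24 libraries, at 4.46, 4.02 and 3.83 CPM in X7/C24_1 to X7/C24_3 and at 30.5 CPM in X7/C24_4. CG34296 was at 13.5, 9.36 and 11.1 CPM in X7/C24_1 to X7/C24_3, at 0.161 CPM in X7/C24_4, at 9.81 CPM in C24_2 and at 0.487 CPM in C24_4, so that libraries of one genotype differed in both groups. Best3, a bestrophin family gene, had 33 reads in C24 and 1 in X7/C24, a ratio of 35.6 with a 95% interval of 5.97 to 1450 for counting error.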
